A study of Mus musculus with 6 samples.

Results

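The Dppa2 peaks examined here lay at protein-coding promoters and had few CpG dinucleotides around the peak midpoint. A peak was included when the nearest transcription start site (TSS) in GENCODE M1 belonged to a protein-coding gene, when no second protein-coding gene had a TSS within 1000 bp of the peak midpoint, and when the ratio of observed to expected CpGs was below 0.4 in the 1000 bp centred on the midpoint. A ratio of 1 is the number of CpGs that the C and G content alone would give. Of the 3336 peaks in the list, 2586 had 1 protein-coding gene near, and 203 of these met the CpG limit. The other 2383 had a ratio of 0.4 or more. No measured binding value was used to choose the peaks.

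The cells were CGR8, a mouse embryonic stem cell (ESC) line kept on gelatin with leukemia inhibitory factor. Stable puromycin-selected clones carried a pPyCAG vector for Dppa2 with a V5 tag at its N-terminus, so that the protein pulled down came from a transgene. The control ChIP used CGR8 cells without a V5 tag. Of the 6 samples, only the V5-Dppa2 library gave a peak list here; as it is 1 library, there is no replicate error and no test between conditions, and the read depth is unknown. Each peak's score is the MACS score of the authors, which is higher the smaller the p-value of its enrichment over the untagged control. The list holds peaks at TSSs, so distances to the TSS are bounded by how it was made. Positions are on mm9, and intervals of shares are exact 95% intervals that cover counting error only.

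Dppa2 is a SAP-domain protein of pluripotent cells and early embryos that binds chromatin. CpG-poor promoters differ from CpG islands, in which CpGs are dense and mostly unmethylated. Promoters of many tissue-restricted genes are CpG-poor, and a TATA box is more usual among them than among CpG islands. Keratins, an example of such genes, form the intermediate filaments of epithelia and hair, and keratin-associated proteins crosslink them in the hair shaft.

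The sequence under several of the CpG-poor peaks is shown first, on the gene strand with the CpGs in capitals: that of the highest score, families of keratin region genes with shared sequence, and that of the lowest CpG ratio. The highest score, 1617, was at Plvap, where the 200 bases at the midpoint held 2 CpGs at 48.5% GC and a run of CT units. Of the 36-base windows of this peak 7.71% recur in mm9, with up to 628912 copies.
Plvap, chr8:74036072-74036271, minus strand: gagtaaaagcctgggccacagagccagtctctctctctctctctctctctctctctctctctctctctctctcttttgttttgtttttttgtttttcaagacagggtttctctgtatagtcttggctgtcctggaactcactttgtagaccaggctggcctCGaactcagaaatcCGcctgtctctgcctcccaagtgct
The peaks at Gm11554, Gm11569 and Krtap4-13, with scores of 1105, 981 and 937, share a coding stretch of 248 bases that is identical in all 3. It holds 5 CpGs, with a CpG ratio of 0.194 and a GC content of 64.9%.
Gm11554, chr11:99665339-99665586, minus strand: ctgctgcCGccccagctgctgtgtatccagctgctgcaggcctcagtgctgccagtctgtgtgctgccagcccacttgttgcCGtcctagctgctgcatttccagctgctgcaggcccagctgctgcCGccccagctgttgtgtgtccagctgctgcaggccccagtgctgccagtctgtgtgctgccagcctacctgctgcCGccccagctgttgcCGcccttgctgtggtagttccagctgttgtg
A coding stretch of 161 bases with 3 CpGs and 69.6% GC is identical in the peaks at Krtap2-4, Gm11938, Gm11937 and Gm11562. These peaks scored 362, 393, 267 and 300.
Krtap2-4, chr11:99475766-99475926, minus strand: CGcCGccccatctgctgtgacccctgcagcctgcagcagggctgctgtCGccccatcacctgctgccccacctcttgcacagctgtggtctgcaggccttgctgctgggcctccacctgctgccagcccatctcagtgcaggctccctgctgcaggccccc
The hair keratin genes Krt31, Krt33a, Krt33b and Krt34 share 89 identical coding bases with 1 CpG. Their peaks scored 429, 844, 903 and 629.
Krt33b, chr11:99890881-99890969, minus strand: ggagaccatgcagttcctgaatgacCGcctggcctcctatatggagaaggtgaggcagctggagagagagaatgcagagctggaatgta
The lowest CpG ratio, 0.0926, was at Gm7137 on chromosome 10, where the 200 bases at the midpoint held 0 CpGs at 64.0% GC. This peak scored 124, and 49.95% of its 36-base windows recur in mm9.
Gm7137, chr10:77274254-77274453, minus strand: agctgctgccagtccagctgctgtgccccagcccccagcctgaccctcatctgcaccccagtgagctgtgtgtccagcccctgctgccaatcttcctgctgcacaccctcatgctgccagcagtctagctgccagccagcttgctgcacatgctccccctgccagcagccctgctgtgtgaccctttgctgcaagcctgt
The 5 stretches have a GC content of 48.5 to 69.6% and hold 0 to 5 CpGs each.

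The scores of the CpG-poor peaks ran from 101 to 1617 with a median of 266, and those of the other 2383 peaks ran from 100.01 to 3100 with a median of 223. A score of at least 200 was reached by 132 of the 203 (65.0%, 58.0 to 71.6%) and by 1388 of the 2383 (58.2%, 56.2 to 60.2%), and these intervals overlap. Median widths were 1417 and 1437 bp. The whole peaks held a median of 34 CpGs against 108, a difference that the CpG limit itself sets.

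**Figure D1:**
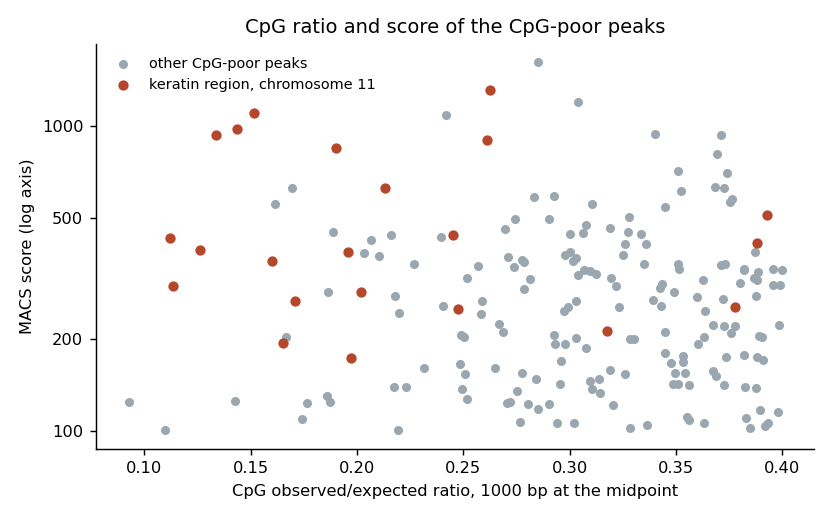
CpG observed/expected ratio in the 1000 bp at the midpoint (x axis) against the MACS score (y axis, log scale) of the 203 CpG-poor peaks, 1 point per peak, with the 22 peaks of the chromosome 11 keratin region in red. Scores above 500 occur along nearly the whole range of the ratio, and the keratin region peaks sit mostly at the low end of the ratio.

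The strongest of these peaks lay at Plvap, which encodes a protein of endothelial fenestrae, with a score of 1617. The peak spanned chr8:74034930-74037414, which is 2485 bp, and its midpoint was 504 bp upstream of the TSS. Next were Krtap4-16 (1311, chr11:99712124-99712964) and D17H6S56E-3 (1197, chr17:35150774-35155203), the latter also the widest of the 203 peaks at 4430 bp. They were followed by Gm11554 (1105), Ankrd9 (1089), Gm11569 (981), Gm9008 (941), Krtap4-13 (937), Gm4840 (931) and Krt33b (903). Of these 10, 5 were keratin-associated or keratin-region genes. The CpG-poor window did not always describe the TSS. In the 1000 bp around the TSS the ratio was 0.496 at Plvap, 0.571 at Gm9008 and 0.569 at Gm4840. It was below 0.4 at the others of these 10, and outside them it was 0.76 at Gcnt4. Nor did the window always describe the whole peak. The peak at Ankrd9 held 194 CpGs over 3309 bp, the most of any of the 203, although the ratio at its midpoint was 0.242.

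The limit of 0.4 cut through a continuous range. Just inside it were Phkg1 at 0.3997 with a score of 337, Cox4i2 at 0.3987 with 301 and Gm8420 at 0.3984 with 222. Just outside were Pnpla1 at 0.4002 with 136, Rnf186 at 0.4022 with 239 and Ano8 at 0.4025 with 657. The 5 lowest ratios were those of Gm7137 (0.0926), Mc1r, the melanocortin receptor of pigment cells (0.1096), Krt31 (0.1121), Gm11562 (0.1136) and Gm11938 (0.1261). Scores at these 5 genes ran from 101 at Mc1r to 429 at Krt31.

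To see how often CpG-poor promoters carry a peak at all, each protein-coding gene was given 1 main TSS, that of most transcripts, and counted as bound when a peak midpoint lay within 1000 bp. Of 22367 genes 3019 were bound, which is 13.5%. Of the 9058 with a CpG ratio below 0.4 at the main TSS, 237 were bound, which is 2.62% (2.30 to 2.97%). The share rose from 0.191% below a ratio of 0.1 to 1.08% from 0.1 to 0.2, 3.12% from 0.2 to 0.3 and 7.09% from 0.3 to 0.4. It went on to 39.7% at a ratio of 1 or more. Peaks were thus few at CpG-poor start sites, and the share climbed without a step at the limit of 0.4.

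Within the CpG-poor start sites, the bound share also rose with GC content, which enters the CpG ratio as its denominator but was not itself limited. It was 0.775% (18 of 2322) at 45 to 50% GC, 4.75% (91 of 1916) at 50 to 55%, 12.8% (101 of 791) at 55 to 60% and 26.5% (18 of 68, 16.5 to 38.6%) at 60% or more. Below 45% GC, 9 start sites of 3961 were bound. The rise remained in narrow classes of the CpG ratio: between 0.3 and 0.4 the share was 1.45% under 50% GC, 7.23% at 50 to 55% and 22.5% at 55% or more. Between 0.1 and 0.2 it was 0.12%, 3.85% and 3.88%, so that the last step was absent there. Many of the 24 bound start sites behind the 3.85% lay in the chromosome 11 keratin region described below, among them Gm11569, Gm11554, Krtap4-13 and Krt31. Several of these share sequence, and their part in this rise and in the absent step was not tested. Median GC was 55% at the 237 bound and 45.9% at the 8821 unbound CpG-poor start sites. At start sites with a CpG ratio of 0.4 or more, the share was 7.31% at 45 to 50% GC and 6.92% at 50 to 55%. It was 13.3% at 55 to 60% and 32.1% at 60% or more. From 55% GC the intervals of the CpG-poor and the CpG-richer start sites thus overlapped, while below it the CpG-poor share was lower.

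**Figure D2:**
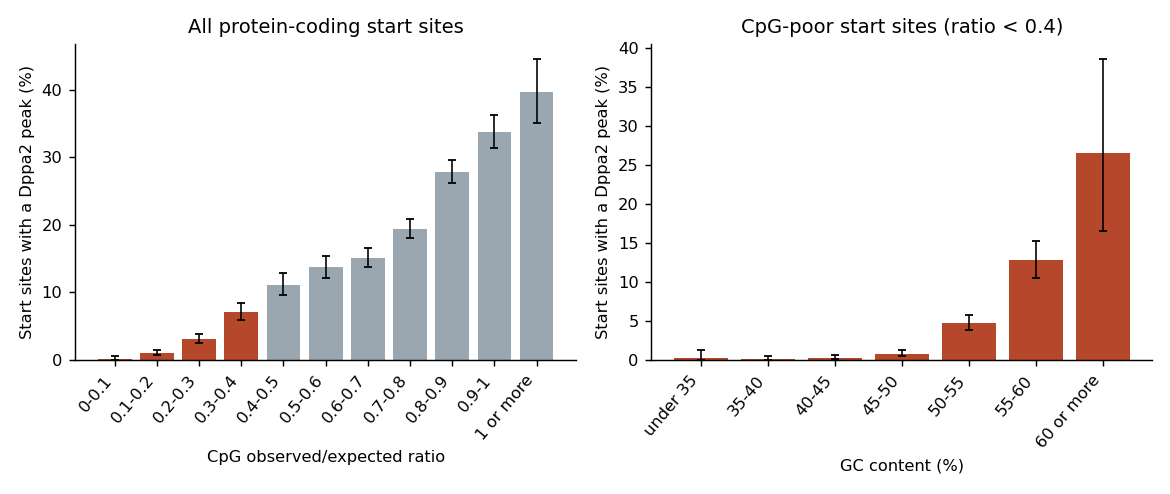
Share of protein-coding start sites with a Dppa2 peak midpoint within 1000 bp (y axis, %), by CpG observed/expected ratio for all 22367 genes (left; classes below 0.4 in red) and by GC content for the 9058 CpG-poor start sites (right). Bars are shares and whiskers exact 95% intervals; the left bars rise from 0.191% to 39.7% and the right ones reach 26.5% at 60% GC or more.

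A short CpG-rich stretch was found in part of the CpG-poor peaks. A window of 200 bp with a CpG ratio of at least 0.6 and at least 50% GC occurred in 102 of the 203 peaks (50.2%, 43.2 to 57.3%). The other peaks are no comparison for this, as their CpG ratio was chosen to be higher. In the 2 kb around the main TSS, 136 of 237 bound CpG-poor start sites held such a stretch (57.4%, 50.8 to 63.8%) and 1580 of 8821 unbound ones (17.9%, 17.1 to 18.7%). The bound sites also had a higher median GC (55 against 45.9%) and a higher median CpG ratio (0.307 against 0.183). Both enter the definition of the stretch, and their part in the difference was not tested. At Pax8, a paired-box factor of thyroid and kidney, the best 200 bp reached 1.33 while the 1000 bp at the midpoint had 0.378. At Gm11562 no 200 bp went above 0.231.

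The peaks lay mostly downstream of the TSS. The midpoint was downstream in 156 of 203 (76.8%, 70.4 to 82.5%) and in 73.6% of the other peaks, with medians of 232 and 134 bp. It fell in a coding exon in 93 of 203 (45.8%, 38.8 to 52.9%) against 28.5% (26.7 to 30.4%), and in a UTR in 18 (8.87%, 5.34 to 13.7%) against 29.2% (27.35 to 31.04%). The TSS was inside the peak in 189 of 203 (93.1%, 88.7 to 96.2%) against 98.6% (98.01 to 99.01%). Genes whose transcripts at the TSS all have a single exon made up 34 of 203 (16.7%, 11.9 to 22.6%) against 7.30% (6.29 to 8.42%), and in 33 of these 34 the midpoint was in the coding exon. Without the keratin region of chromosome 11, the coding exon share was 39.8% (32.6 to 47.3%) and the single-exon share 12.7% (8.23 to 18.4%). Farthest upstream were Hpn, encoding a liver serine protease (−996 bp), Gcnt4 (−925 bp) and Tnni2 (−886 bp); farthest downstream were Tigd3 (1000 bp), Sp2 (961 bp) and Tmem52 (927 bp).

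**Figure D3:**
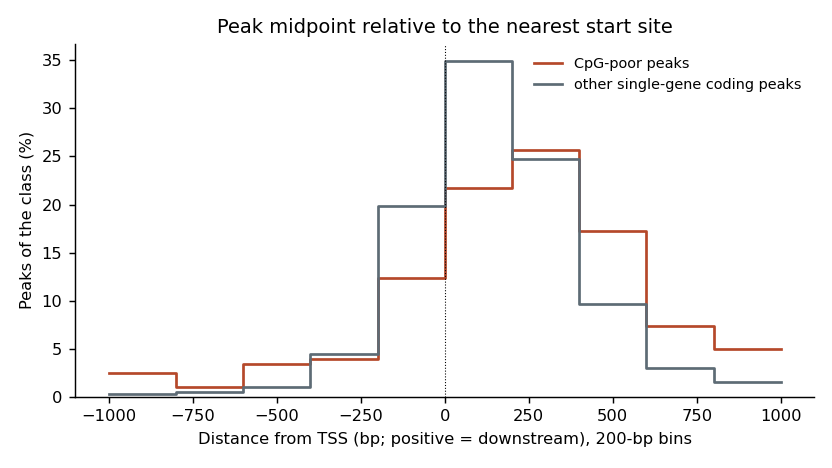
Distance of the peak midpoint from the nearest TSS in 200-bp bins (x axis, positive downstream) as a share of the peaks of each class (y axis, %), for the 203 CpG-poor peaks (red) and the other 2383 (grey). The CpG-poor peaks are most frequent at 200 to 400 bp (25.6%) and the others at 0 to 200 bp (34.96%).

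A keratin region on chromosome 11 held 22 of the 203 peaks. It runs over 1.03 Mb from 99105399 to 100131185 and has 83 protein-coding genes, of which 27 were bound (32.5%, 22.6 to 43.7%), 25 of them among its 76 CpG-poor ones. Over all genes the bound share was 13.5%, and over all CpG-poor ones 2.62%. Its 22 CpG-poor peaks scored 173 to 1311 with a median of 403, against a median of 248 at the 181 peaks elsewhere. They were narrow, with a median of 870 bp against 1496 bp, and held a median of 13.5 CpGs against 36. The midpoint was in the coding exon in 21 of 22. Of the 9 keratin genes, Krt33b, Krt33a and Krt34 of the hair scored highest. Krt14 of basal keratinocytes scored 439, Krt12 of the cornea 414, Krt13 of internal epithelia 254, Krt17 213 and Krt16 173. Of the 13 keratin-associated or provisionally named genes, Krtap4-16 scored highest, Krtap17-1 512, Krtap4-7 386, Gm11563 285, Krtap4-1 251 and Gm11555 194. These genes of the region were named in full after their values had been seen.

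**Figure D4:**
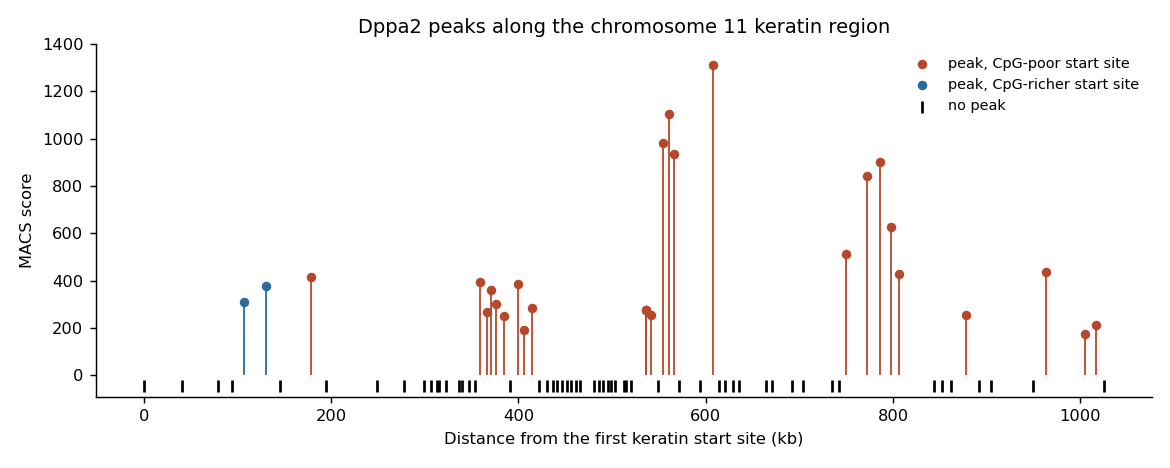
MACS score of the highest peak at each bound gene (y axis) along the keratin region of chromosome 11, by distance of the main TSS from the first keratin TSS (x axis, kb). Stems mark bound genes, red at CpG-poor and blue at CpG-richer start sites, and black ticks mark genes without a peak; the highest stem, 1311, is Krtap4-16.

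Other keratin and keratin-associated genes lie in regions on chromosomes 15, 16 and 7. On chromosome 10 the only gene so named, Krtap12-1, was not bound. On chromosome 15, 10 of 24 keratin genes were bound, and the 6 CpG-poor peaks lay at Krt71 of the hair root sheath (589), Krt81 (368), Krt79 (354), Krt5 of basal keratinocytes (266), Krt80 (212) and Krt86 (101). None of the 19 keratin-associated genes on chromosome 16 was bound, nor any of the 4 on chromosome 7. The region of chromosome 16 had 0 bound of 33 coding genes, with an upper limit of 10.6%. That of chromosome 7 had 0 of 9 with an upper limit of 33.6%, above the 32.5% of chromosome 11. Genes of a region are not independent. On chromosome 11, 15 of the 22 peaks shared sequence with another peak, and Gm11595 and Krtap4-8 were counted as bound through the same peak. These limits therefore do not measure a difference between regions. Median GC at the CpG-poor keratin and keratin-associated start sites was 43.6% on chromosome 16, 51.6% on chromosome 11, 54.3% on chromosome 15 and 54.6% on chromosome 7. The part of GC content in these shares was not tested.

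Several of these peaks sit in sequence that occurs more than once in mm9, where a read with several alignments was placed at its best match, so that reads from 1 copy could be counted at another. Over 50% of the 36-mers of the peak were repeated in 23 of 203 peaks (11.3%, 7.32 to 16.5%), against 3.23% (2.56 to 4.02%) of the others, and in 6 of the 22 of the chromosome 11 region. Sequence was shared with another peak in 35 of the 203 (17.2%, 12.3 to 23.2%) against 4.62% (3.81 to 5.54%) of the others. The peaks at Rps2-ps5 and Rps2-ps6 shared it with 27 other peaks each, and those at Gm5292 and Gm8420 with 7 each. The repeated share was 94.3% at Gm11569, 93.1% at Gm11554 and 86.7% at Krtap4-13, but 22.6% at Krtap4-16 and 0 at Krtap17-1, Krt12 and Krt13. Its median over the 22 peaks of the region was 30.0%. Only the last 3 of the 22 had no repeated 36-mer, against 109 of all 203. With peaks over 50% left out, 21 of the 83 genes of the region were still bound (25.3%). No lower limit was applied to the region. The alpha-globin genes Hba-a1 and Hba-a2 had peaks of 148 and 118 with 88.9 and 90.2% repeated, and Dmrtc1c1 and Dmrtc1c2 had peaks of 614 and 811 with 98.0 and 96.3%, so that the scores of these copies cannot be told apart.

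A TATA box, searched as TATAAA on the gene strand between 40 and 20 bases upstream of the TSS, was present at 21 of the 203 (10.3%, 6.52 to 15.4%). It was present at 2.32% of all 22367 main start sites. Of the 21, 13 were in the chromosome 11 keratin region and 2 were keratins of chromosome 15; outside the chromosome 11 region the share was 8 of 181 (4.42%, 1.93 to 8.52%), close to the 4.22% (3.81 to 4.66%) of unbound CpG-poor start sites. Among the 10 highest scores it was absent at Krtap4-16, D17H6S56E-3, Ankrd9, Gm9008, Gm4840 and Krt33b. The 45 bases upstream of the TSS are shown for 7 of the higher-scoring of the 21 genes that have it, with TATAAA in capitals.
Plvap, chr8:74035669-74035713, minus strand: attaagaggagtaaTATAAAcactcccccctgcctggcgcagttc
Gm11554, chr11:99665761-99665805, minus strand: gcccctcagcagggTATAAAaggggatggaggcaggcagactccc
Krt33a, chr11:99877527-99877571, minus strand: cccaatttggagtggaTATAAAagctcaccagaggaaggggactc
Krt34, chr11:99902869-99902913, minus strand: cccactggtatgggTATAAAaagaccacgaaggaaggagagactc
Krt71, chr15:101573541-101573585, minus strand: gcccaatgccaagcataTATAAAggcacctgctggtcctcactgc
Krtap17-1, chr11:99855309-99855353, minus strand: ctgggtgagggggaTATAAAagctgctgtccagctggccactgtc
Adamtsl2, chr2:26934854-26934898, plus strand: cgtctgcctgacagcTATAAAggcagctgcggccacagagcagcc
Gm11569 has the same 45 bases as Gm11554. A match of these letters is a description and not a shown binding site.

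Other motifs were searched on both strands in the 1000 bp around the main TSS. GGGCGG, the GC box bound by Sp factors, occurred at 141 of 237 bound CpG-poor start sites (59.5%, 53.0 to 65.8%), at 1631 of 8821 unbound ones (18.5%, 17.7 to 19.3%) and at 59.6% of all start sites. CCAAT was at 68.4% of bound and 77.6% of unbound CpG-poor sites and 70.2% of all. TGACTCA, the AP-1 site, was at 17.3 and 16.9% and at 12.2% of all. CACGTG was at 12.7 and 10.2% and at 16.9% of all, and TGACGTCA at 1.27 and 1.17% and at 3.20% of all. At least 6 CA units in a row were found at 7.17 and 10.3% and at 7.18% of all, and 6 GA units at 4.64 and 5.48% and at 3.68% of all. GGGCGG holds a CpG and 6 G or C letters, and bound sites had more of both; their part in its share was not tested.

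Gene groups were read against the 2.62% bound of all CpG-poor start sites, and of the groups examined the interval lay apart from it for keratin and for chemosensory receptor genes. The groups were not matched for GC content, with which the bound share rose, and several keratin genes share sequence. What part these have in the shares of the groups was not tested. The counts are of CpG-poor main start sites, while the peaks named are those of the 203, whose CpG ratio was taken at the midpoint, so that a group can have more named peaks than bound start sites. In the keratin and cornified envelope group 24 of 121 CpG-poor genes were bound (19.8%, 13.1 to 28.1%). Of spermatid and sperm genes 4 of 57 were bound (7.02%, 1.94 to 17.0%), and the peaks included here lay at Tnp2, a transition protein of sperm chromatin (326), Tekt2 of the flagellum (178) and Spata20 (123). Of meiosis, piRNA and germ cell genes 0 of 16 CpG-poor ones were bound, with an upper limit of 20.6%, while 28 of all 78 were bound, CpG-richer ones included, beside 13.5% of all protein-coding genes. Of 1486 CpG-poor chemosensory receptor genes 10 were bound (0.673%, 0.323 to 1.23%), and the highest-scoring peaks lay at Olfr718-ps1 (711), Olfr1395 (542), Olfr982 (464) and Olfr1344 (386). All 4 of these midpoints were in the coding exon, 482 to 581 bp downstream of the TSS.

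For the groups that follow, as for the spermatid and meiosis groups, the interval held 2.62%. Muscle structure genes had 3 of 55 CpG-poor genes bound (5.45%, 1.14 to 15.1%), with peaks at Tnni2, a fast-fibre troponin (556), Tcap, the titin cap (473), and Mylk2, a muscle myosin kinase (137). Immune receptor and cytokine genes had 7 of 362 (1.93%, 0.781 to 3.94%), with Cd177 (257), Tnfsf13 (243), H2-T3 (169) and Il17c (106). Protease genes had 4 of 163 (2.45%), with Adamtsl2 (449), Tmprss3 (353), Prss39 (209) and Adam11 (107). Ion channels had 4 of 118 (3.39%), with Accn3 (413), Cacng6 (256.4) and Grin2d (255.99). Solute carriers had 2 of 131 (1.53%), with Slc25a34 (424), Slc7a4 (277) and Slc12a3 (201). Liver and xenobiotic genes had 4 of 288 (1.39%), with Sult5a1 (347) and Sult2b1 (221). Homeobox and paired-box genes had 2 of 59 (3.39%), with Pax8 (221) and Nkx6-3 (106). Zinc finger genes had 2 of 122 (1.64%), histone genes 0 of 4 and genes with provisional names 49 of 2252 (2.18%).

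Part of the CpG-poor peaks lay at a TSS other than the gene's main one. This was so for 56 of the 203, a count that was not made for the other peaks. A TSS used by fewer than all transcripts of its gene was nearest in 49.8% of the 203 and in 64.9% of the other 2383. In 14 of the 56 the main TSS was over 1000 bp away. In 6 of these 14 the main TSS had a CpG ratio of 0.6 or more. At Brsk2, a neuronal kinase, the CpG-poor peak scored 365 at a ratio of 0.278, and the main TSS lay 43.4 kb away with a ratio of 0.931 and a peak of its own. Hectd3 also had a peak at its main TSS, 7.5 kb away with 0.76. At Notch1, a receptor of cell fate decisions, the peak scored 166 at a ratio of 0.249, while the main TSS, 12.8 kb away with 0.72, had none. St6galnac4 (505), Ctdsp2 (243) and Ppan (139) likewise had a CpG-poor peak and none at the main TSS. A non-coding gene also had a TSS within 1000 bp of the midpoint at Brsk2, Hectd3, St6galnac4, Ctdsp2 and Ppan. This was not so at Notch1. A non-coding TSS was that near at 7.39% of the 203, at 6.71% of the other 2383 and at 18.5% of all 3336 peaks. At Ctdsp2, 45.9% of the 36-mers of the peak were repeated.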

How the data were processed

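ChIP-seq with an anti-V5 antibody had been done on CGR8 ESCs with V5-Dppa2. Only this library's peak list was analysed; 5 further samples were not used here. The score in the deposited list was computed by the authors and grows with the −log10 p-value that MACS gave a peak relative to the untagged line. Upstream of it, low-complexity reads were discarded, reads were aligned to mm9 by Bowtie 0.12.7 keeping the best alignment, duplicates were discarded and peaks were called by MACS 1.4.2. The processing notes also name Picard 1.81. The depth is unknown.

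Peak midpoints were set against all TSSs of GENCODE M1 on mm9, with 4 peaks tied between genes. CpG ratios and motifs were counted in mm9. Repeated sequence was measured as the share of 36-mers of a peak that occur more than once in the genome, and sequence shared between peaks with BLAST at 85% identity over 300 bp. Shares have exact Clopper-Pearson intervals. The counting steps were tested on simulated data. Genes were named by score, CpG ratio, width, position, distance from the limit and gene group. The rule, peaks and gene lists were chosen with earlier results of these data known. Alternatives were other CpG limits and windows, a stricter score, other distances and other limits for repeated and CpG-rich sequence. Python 3.11.15 was used with numpy 2.4.6, pandas 2.3.3, scipy 1.17.1, pysam 0.24.0, BLAST 2.17.0, matplotlib 3.10.9, networkx 3.6.1 and numba 0.67.0.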

Additional observations from a re-analysis of the deposited data

How the results depend on the processing

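Of 53 alternatives, 38 left the value within its interval, or a count within 1.5 times. The number of CpG-poor peaks was 203, but 310 with a 2000 bp window and 132 at a score of at least 200. The bound share of CpG-poor start sites, 2.62%, was 2.07% at a CpG limit of 0.35, 3.18% at 0.45, 1.75% at a score of at least 200 and 1.66% with midpoints within 500 bp. The median score was 349 at a score of at least 200, which that limit itself raises. The median width was 1577 bp with a 500 bp window and 1302 bp with a 2000 bp window. A CpG-rich stretch was found in 32.5% of the peaks at 300 bp and in 19.21% at a ratio of 0.75. Repeated sequence was found in 22.2% at over 25% and in 4.93% at over 75%. At 55% GC or more the bound share of CpG-poor start sites was 13.8%, but 9.08% at a score of at least 200 and 9.55% with midpoints within 500 bp. The alternatives on the keratin genes, on this GC class and on leaving out repeated sequence were chosen after seeing the data. The cause of these moves was not tested.

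No paired analysis was possible because 1 library gave the peaks. With 1 library, neither replicate error nor the spread between clones is known, and the midpoint stands in for a summit that the list does not give.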
